A study of Danio rerio with 4 samples.

Results

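The early transcriptional response to a retinal wound in zebrafish was examined by setting the retina at 12 hr post-injury (12 hpi) against uninjured retina. Every transcript that the authors listed as higher or lower at 12 hpi was taken, and 1 row was kept per gene, the transcript with the largest mean level over both libraries. The 619 transcript rows gave 605 genes, with 386 (63.8%) on the higher side at 12 hpi and 219 (36.2%) on the lower side. The series tables with values hold 1885 genes in all, with 1466 genes in the comparison of 4 days post-injury (4 dpi) with uninjured retina.

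The 12 hpi group was whole retina of wild-type fish aged 10 months, taken 12 hr after the retina was wounded with a needle, and no agent was given. Its control was whole retina of uninjured wild-type fish of the same age, also without any agent. The 4 dpi group was wounded wild-type retina of that age, taken after 4 days, and the cyclopamine library of the series is not compared here. Each group is 1 library of total RNA, and how many fish gave a library is not given in the sources used here. With 1 library per group there is no replicate check and no test across samples, so every difference below compares 2 libraries and not the 2 conditions.

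Zebrafish regenerate a wounded retina. The Müller glia, the radial support cells that span the retina, respond to damage with inflammatory and cytokine signals, leave their resting state, and divide to give progenitors that replace lost neurons. The first hours are known for the induction of immediate-early transcription factors, Stat3 signaling, growth factors, and matrix proteases, before cells enter S phase.

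Levels are FPKM, the number of fragments of a transcript divided by its length in kilobases and by the number of fragments mapped in that library. Ratios are log2((12 hpi FPKM + 0.1)/(uninjured FPKM + 0.1)), which understates the difference for genes at low levels. The tables keep only listed features, so a gene without a value here is not known to be unchanged, and read depth is not known from these tables. The median log2 ratio was 3.25 among the 386 higher genes (range 1.40 to 10.24) and -2.13 among the 219 lower genes (range -12.75 to -0.10). The ends at 10.24 and -12.75 are genes listed at 0 in 1 library, so their size depends on the added 0.1 FPKM. The higher genes had a median of 9.88 FPKM at 12 hpi and 1.04 FPKM in uninjured retina, whereas the lower genes had a median of 3.75 FPKM at 12 hpi and 18.6 FPKM in uninjured retina. The listed direction itself sets part of this difference between the levels of the lists. The row nearest to 0 was that of *tex264b*, with 2.59 FPKM at 12 hpi and 2.78 FPKM in uninjured retina, although it stands in the list of lower transcripts.

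**Figure D1:**
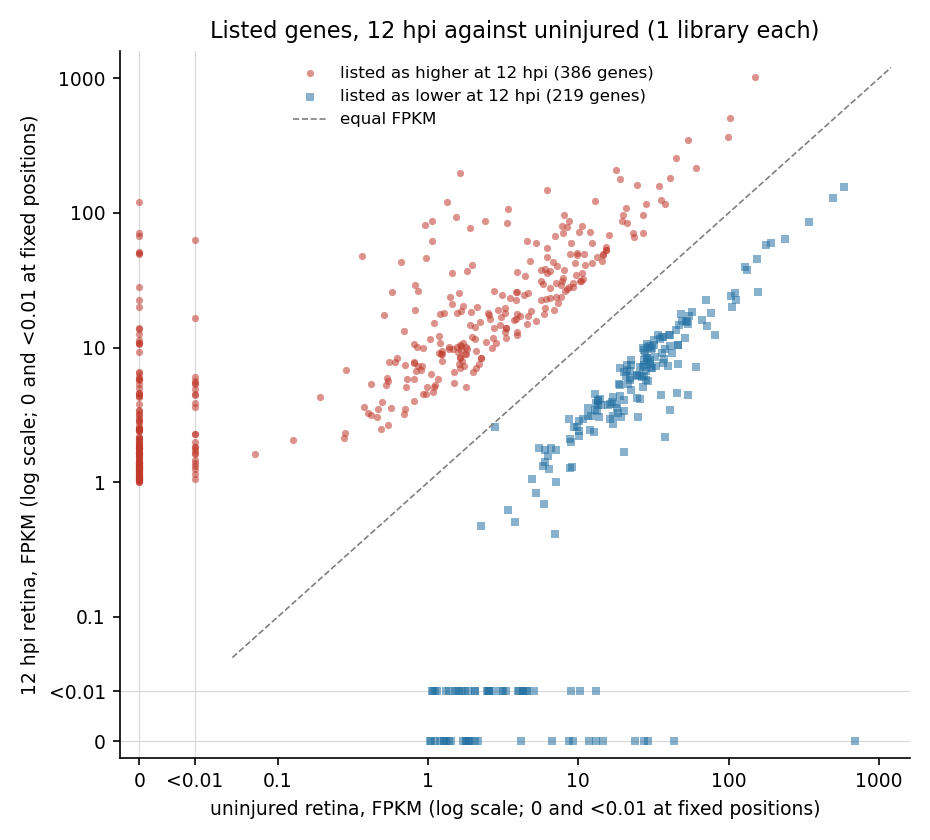
FPKM at 12 hpi (vertical, log scale) against FPKM in uninjured retina (horizontal, log scale) for the 605 listed genes, with circles for the 386 listed as higher, squares for the 219 listed as lower, and a dashed line at equal FPKM. Values of exactly 0 and values under 0.01 FPKM are drawn at fixed positions, and 145 genes are at 0 in 1 library, 116 of them in uninjured retina.

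Most genes on both sides were protein-coding. Protein-coding genes made up 348 of the 386 higher and 203 of the 219 lower genes. Long intergenic noncoding RNAs made up 15 of the 386 higher and 3 of the 219 lower genes. The median genomic span of a gene's listed locus was 9621 bases for the higher and 30481 bases for the lower genes. Among genes with at least 0.01 FPKM in both libraries, where it was 11632 bases for the higher and 32132.5 bases for the lower genes, this ordering was also seen. Reading the symbols against the RefSeq annotation, 262 of 22993 named genes (1.14%) were on the higher side and 169 (0.735%) on the lower side. These shares serve below as the background for the gene groups. The 22993 genes were not limited to those expressed in retina.

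The listed transcription factors of the AP-1 and wider bZIP family, immediate-early regulators that bind DNA as dimers, all stood on the higher side. Of 38 named RefSeq genes of this group, 10 were higher (26.3%) and 0 were lower, against 1.14% and 0.735% over all genes. The median log2 ratio of the 10 was 3.62. The stress-responsive factor *atf3* had 81.8 FPKM at 12 hpi and 0.952 FPKM in uninjured retina (log2 ratio 6.28). The AP-1 partner *fosab* had 77.3 FPKM at 12 hpi and 1.89 FPKM in uninjured retina. All 10 genes had a measurable level in uninjured retina, so none of these ratios rests on a value listed at 0. The most abundant member at 12 hpi was *jun*, with 147 FPKM at 12 hpi and 6.21 FPKM in uninjured retina. Its relative *junbb* had 123 FPKM at 12 hpi and 12.8 FPKM in uninjured retina, the highest uninjured level of the group. The C/EBP factor *cebpb*, a regulator of acute-phase genes, had 26.3 FPKM at 12 hpi and 0.861 FPKM in uninjured retina. The remaining members, *fosl1a*, *atf5a*, *junba*, *cebpd*, and *nfil3*, had log2 ratios between 1.88 and 4.00, with *nfil3* the lowest of the 10.

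Genes of the Myc, Klf, Egr, and Nr4a families, which drive growth and early responses, gave 5 higher and 0 lower genes among 48 named RefSeq genes. The 5 are 10.4% of the group, against 1.14% higher over all genes. 3 of the 5 encode Myc-type proteins. The fish gene *mych* had 26.0 FPKM at 12 hpi and 0.579 FPKM in uninjured retina (log2 ratio 5.26), and *mycb* had 59.6 FPKM at 12 hpi and 5.25 FPKM in uninjured retina. The third, *myclb*, had 54.8 FPKM at 12 hpi and 6.22 FPKM in uninjured retina. The orphan receptor gene *nr4a1* and the zinc finger gene *klf6a*, known for a role in optic axon regrowth in zebrafish, had log2 ratios of 2.71 and 2.43.

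Genes of rRNA processing and ribosome assembly, a class that Myc proteins are known to regulate, gave 13 higher and 0 lower genes among 105 named RefSeq genes. The 13 are 12.4% of the group, against 1.14% higher over all genes. This group was drawn up after the values were seen, so its count is only a description. Its median log2 ratio was 2.06, below the median of 3.25 over all higher genes. Over genes with at least 0.01 FPKM in both libraries, these medians were closer, at 2.05 and 2.51. The ribosomal chaperone gene *grwd1* had 67.3 FPKM at 12 hpi and 6.98 FPKM in uninjured retina (log2 ratio 3.25). The dyskerin gene *dkc1*, which modifies rRNA, had 18.9 FPKM at 12 hpi and 4.86 FPKM in uninjured retina. The levels of *nop2*, *ppan*, *pes*, *tsr1*, *wdr3*, *esf1*, *rrs1*, *pum3*, *gpatch4*, and *CCDC86* lay between 8.38 and 16.4 FPKM at 12 hpi, against 1.46 to 5.19 FPKM in uninjured retina. Of the 13 genes only *utp18*, with 2.82 FPKM at 12 hpi, was listed at 0 in uninjured retina. The coactivator gene *pprc1* was also higher, with 10.6 FPKM at 12 hpi and 0.805 FPKM in uninjured retina.

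The Il6-family and JAK-STAT pathway carries a cytokine signal from a receptor with the shared subunit Il6st, through a Jak kinase, to Stat3, whose targets include the Socs proteins that shut the pathway down. Genes at each of these steps were listed as higher at 12 hpi, 8 in all, and 0 as lower, with a median log2 ratio of 2.73. 7 of the 8 symbols were among 53 named RefSeq genes of the group (13.2%, against 1.14% higher over all genes). At the ligand end, *crlf1a*, whose product is secreted with a Cntf-type cytokine, had 43.6 FPKM at 12 hpi and 0.659 FPKM in uninjured retina (log2 ratio 5.85). The listed *il6st* transcript with the larger mean had 37.5 FPKM at 12 hpi and 8.02 FPKM in uninjured retina. The kinase gene *jak1* had 86.9 FPKM at 12 hpi and 19.6 FPKM in uninjured retina (log2 ratio 2.14). *stat3* itself had 79.5 FPKM at 12 hpi and 7.84 FPKM in uninjured retina (log2 ratio 3.33). Among the feedback inhibitors the size differed between paralogs. *socs3b* had 87.4 FPKM at 12 hpi and 2.39 FPKM in uninjured retina (log2 ratio 5.14). *socs2* had 71.1 FPKM at 12 hpi and 22.9 FPKM in uninjured retina (log2 ratio 1.63), and *cish* had 78.3 FPKM at 12 hpi and 8.38 FPKM in uninjured retina. At 12 hpi the 3 inhibitor genes thus lay within 71.1 to 87.4 FPKM, while in uninjured retina they ran from 2.39 to 22.9 FPKM. *irf9*, which acts with Stat proteins in interferon signaling, had 2 listed transcripts, with 16.9 and 16.3 FPKM at 12 hpi, and 3.07 and 0.000442 FPKM in uninjured retina.

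**Figure D2:**
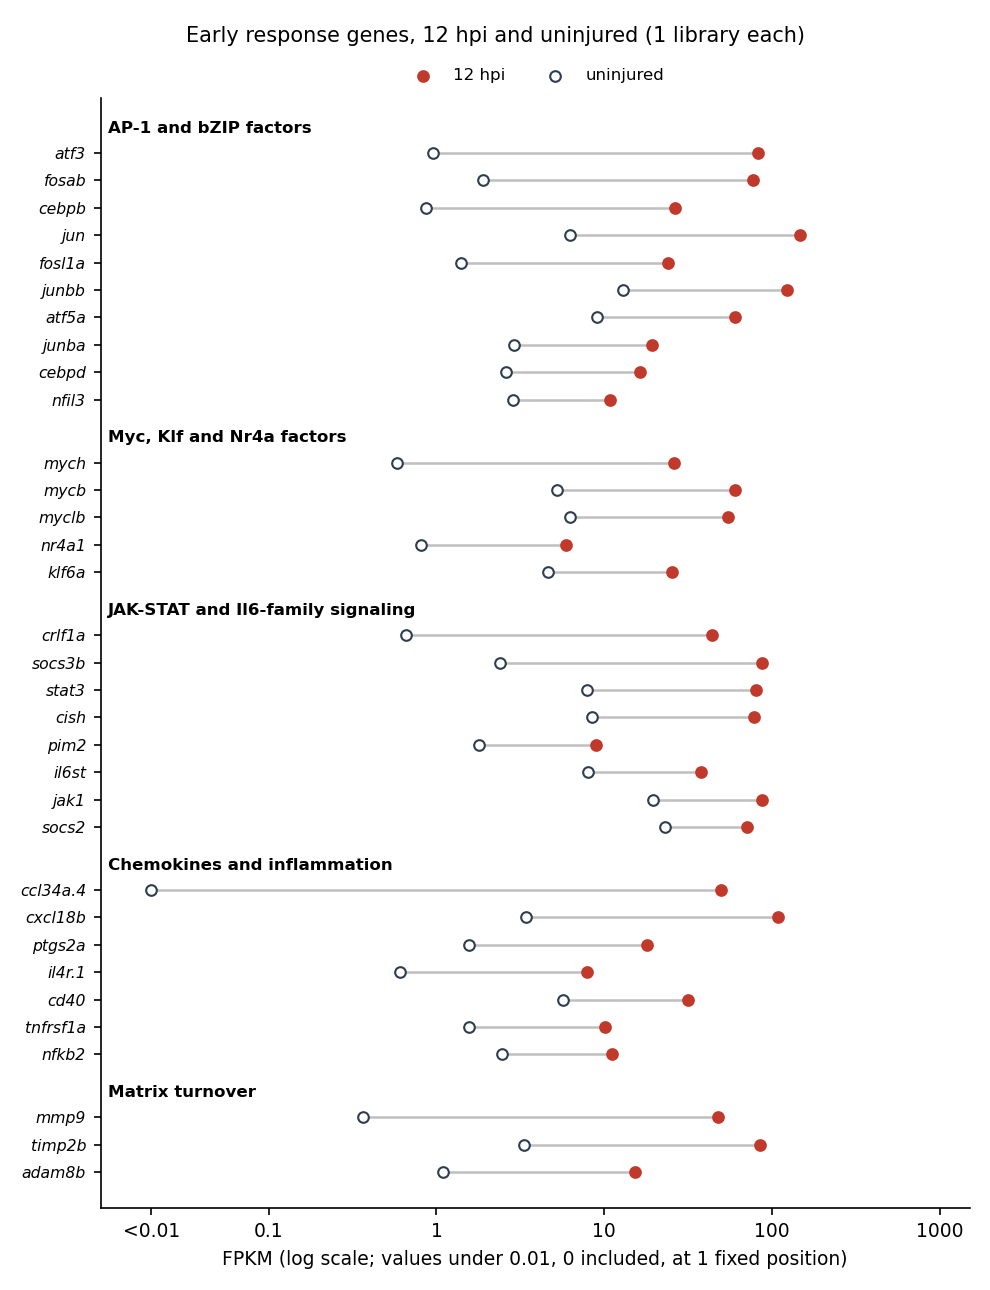
FPKM (horizontal, log scale) of 33 early response genes at 12 hpi (filled circles) and in uninjured retina (open circles), with values under 0.01 FPKM at 1 fixed position. Each gene lies further right at 12 hpi, and *ccl34a.4* is listed at 0 in uninjured retina.

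Chemokines and other genes of inflammatory signaling gave 11 higher and 0 lower genes. 10 of them were among 211 named RefSeq genes (4.74%, against 1.14% higher over all genes). The median log2 ratio was 3.89, or 3.44 over the 5 genes with at least 0.01 FPKM in both libraries. The chemokine gene *cxcl18b*, which attracts neutrophils in zebrafish, had 108 FPKM at 12 hpi and 3.40 FPKM in uninjured retina (log2 ratio 4.94). The chemokine gene *ccl34a.4* had 49.2 FPKM at 12 hpi and was listed at 0 in uninjured retina. The other chemokine and chemokine receptor genes listed at 0 in uninjured retina, *ccl34b.8*, *ccl34a.3*, *cxcl8b.1*, *ccr12b.1*, and si:ch73-54b5.2 (named *cxcr1* in the gene name table), had 1.11 to 2.48 FPKM at 12 hpi. These 5 lay close to the lowest level that the tables hold in the higher library, 1.01 FPKM. The prostaglandin synthase gene *ptgs2a* had 17.9 FPKM at 12 hpi and 1.56 FPKM in uninjured retina. Receptor genes were also higher, with 10.0 FPKM at 12 hpi and 1.56 FPKM in uninjured retina for *tnfrsf1a*. 3 components of the noncanonical NF-κB route, singled out after their values were seen, were higher together. The receptor gene *cd40* had 31.4 FPKM at 12 hpi and 5.66 FPKM in uninjured retina, the kinase gene *map3k14a* 14.0 FPKM at 12 hpi and 3.30 FPKM in uninjured retina, and *nfkb2* 11.1 FPKM at 12 hpi and 2.44 FPKM in uninjured retina. In the ontology columns of the deposited tables, 7 listed genes carried the term inflammatory response and all 7 were higher, while 179 of the 294 listed genes with any biological process term were higher and 115 were lower.

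Of the complement and coagulation genes, 10 were higher and 0 were lower. 6 of the 10 were among 127 named RefSeq genes of the group (4.72%, against 1.14% higher over all genes). The gene given as C7, a terminal component of the complement attack complex, had 196 FPKM at 12 hpi and 1.64 FPKM in uninjured retina (log2 ratio 6.82), and it has 1 annotated transcript. *f3a* encodes tissue factor, which starts coagulation, and had 35.8 FPKM at 12 hpi and 1.44 FPKM in uninjured retina. The gene given as C4A had 6.82 FPKM at 12 hpi and 0.284 FPKM in uninjured retina. 5 members, among them *cfb*, *fgb*, and *thbd*, were under 0.01 FPKM in uninjured retina and reached only 1.04 to 1.63 FPKM at 12 hpi.

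Over all named RefSeq genes only 1.14% were higher and 0.735% lower, so a count of 0 among a few leukocyte markers says little. Of 6 neutrophil and 8 microglia and macrophage markers chosen to mark these cells, 0 were listed at 12 hpi under the symbol searched. The neutrophil marker *cxcr1* is, however, the name of si:ch73-54b5.2 in the gene name table. That gene had 1.84 FPKM at 12 hpi and was listed at 0 in uninjured retina. The wider neutrophil list gave 4 higher genes and 1 lower. Among its 18 named RefSeq genes, 2 were higher (11.1%) and 1 was lower (5.56%). The wider microglia and macrophage list gave 1 higher gene among 42 named RefSeq genes (2.38%). On the wider lists, *coro1a*, a gene of leukocyte actin, had 11.7 FPKM at 12 hpi and 3.32 FPKM in uninjured retina. The proteoglycan gene *srgn* had 24.4 FPKM at 12 hpi and 3.10 FPKM in uninjured retina, and *lect2l* had 6.44 FPKM at 12 hpi and was listed at 0 in uninjured retina. *rac2*, a GTPase gene of blood cells outside those lists, had 7.38 FPKM at 12 hpi and 0.698 FPKM in uninjured retina. Whether immune cells entering the tissue had a part in the inflammatory genes was not tested. In whole retina, fewer cells of a type and less RNA per cell cannot be told apart, nor can more cells and more RNA per cell.

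Heat shock and chaperone genes gave 11 higher (9.02%) and 0 lower genes among 122 named RefSeq genes, against 1.14% and 0.735% over all genes. Their median log2 ratio was 2.42. The small heat shock protein gene *hspb11* had 87.3 FPKM at 12 hpi and 1.07 FPKM in uninjured retina (log2 ratio 6.22). Inducible Hsp70 genes followed, with 61.5 FPKM at 12 hpi and 4.58 FPKM in uninjured retina for *hsp70l*. The co-chaperone gene *bag3* had 37.7 FPKM at 12 hpi and 5.67 FPKM in uninjured retina. Among the smaller differences, *hspa5*, a chaperone gene of the endoplasmic reticulum, had 83.8 FPKM at 12 hpi and 20.9 FPKM in uninjured retina. Its partner *hsp90b1* had 47.3 FPKM at 12 hpi and 13.4 FPKM in uninjured retina. The smallest log2 ratio of the list, 1.69, was that of *hspa4a*, with 28.1 FPKM at 12 hpi and 8.64 FPKM in uninjured retina. A joint list covered the unfolded protein response and the integrated stress response, which slows translation through eIF2α. It gave 7 higher and 0 lower genes among 50 named RefSeq genes (14.0%). The 7 include *hspa5* and *hsp90b1*, already counted among the chaperones, and *atf3* and *atf5a*, already counted among the bZIP factors. The list also held *ppp1r15a*, a phosphatase subunit that reverses the integrated stress response, with 50.2 FPKM at 12 hpi and 9.86 FPKM in uninjured retina. *trib3*, also on it, had 13.1 FPKM at 12 hpi and 3.88 FPKM in uninjured retina. The iron storage genes zgc:92066 and zgc:198419, named *fthl27* and *fthl28* in the gene name table, had 79.9 and 12.1 FPKM at 12 hpi, against 10.6 and 1.19 FPKM in uninjured retina. They belong to a list of redox, heme, and metal genes with 4 higher and 2 lower genes, or 66.7% higher, near the 63.8% over all listed genes. On it, the lipid peroxidase gene *gpx4b* had 369 FPKM at 12 hpi and 98.2 FPKM in uninjured retina. The 2 lower genes, the catalase gene *cat* and *prdx1*, had transcripts with under 0.01 FPKM at 12 hpi, and 2.04 and 3.16 FPKM in uninjured retina.

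Matrix, protease, and adhesion genes were listed in both directions, 16 as higher and 4 as lower, which is 80.0% higher against 63.8% over all listed genes. The gelatinase gene *mmp9* had 47.8 FPKM at 12 hpi and 0.363 FPKM in uninjured retina (log2 ratio 6.69), and the inhibitor gene *timp2b* had 84.4 FPKM at 12 hpi and 3.33 FPKM in uninjured retina. The sheddase gene *adam8b* had 15.3 FPKM at 12 hpi and 1.1 FPKM in uninjured retina. The higher genes thus held both a protease and a protease inhibitor. Integrin subunits were split. *itgb1b* had 29.8 FPKM at 12 hpi and 5.85 FPKM in uninjured retina, and the alpha subunit genes *itga5* and *itga6a* had 3.17 and 7.27 FPKM at 12 hpi, against 0.420 and 0.910 FPKM in uninjured retina. *itgb5* lay on the other side, with 6.57 FPKM at 12 hpi and 20.2 FPKM in uninjured retina. The other lower genes encode structural matrix proteins. *mfap5* had 2.96 FPKM at 12 hpi and 16.3 FPKM in uninjured retina, and *col15a1b* had 5.40 FPKM at 12 hpi and 21.3 FPKM in uninjured retina.

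Of the growth factor and receptor genes 5 were higher and 0 lower, among 342 named RefSeq genes (1.46% higher, near the 1.14% over all genes). *hbegfa*, an EGF-receptor ligand known to act on Müller glia in zebrafish, had 8.33 FPKM at 12 hpi and 0.621 FPKM in uninjured retina (log2 ratio 3.55). The hepatocyte growth factor receptor gene *met* had 4.33 FPKM at 12 hpi and 0.191 FPKM in uninjured retina. The ligand genes *wnt2bb* and *adma* had 8.01 and 6.64 FPKM at 12 hpi, against 1.69 and 1.48 FPKM in uninjured retina. The Wnt receptor gene *fzd3b* had 1.81 FPKM at 12 hpi and only 0.000268 FPKM in uninjured retina.

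Of the cytoskeletal genes, 11 were higher and 1 was lower, or 91.7% higher against 63.8% over all listed genes. Among 246 named RefSeq genes of the group, 8 were higher (3.25%, against 1.14% over all genes). *actb1*, often used as a constant reference, had 503 FPKM at 12 hpi and 103 FPKM in uninjured retina. The tubulin gene *tuba8l* had 36.8 FPKM at 12 hpi and 1.82 FPKM in uninjured retina. The simple-epithelium keratin genes *krt8* and *krt18*, which are also expressed in surface epithelium, had 96.5 and 47.4 FPKM at 12 hpi, against 26.8 and 6.23 FPKM in uninjured retina. Genes of axon growth and neural adhesion, a group drawn up after the values were seen, included *gap43*, a growth cone gene of retinal ganglion cells, with 36.5 FPKM at 12 hpi and 3.89 FPKM in uninjured retina. The adhesion gene *alcamb* had 10.1 FPKM at 12 hpi and 1.38 FPKM in uninjured retina. The paralogs *chl1b* and *chl1a* went in opposite directions. *chl1b* had 8.35 FPKM at 12 hpi and 2.27 FPKM in uninjured retina, and *chl1a* had 2.87 FPKM at 12 hpi and 10.1 FPKM in uninjured retina.

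The genes of a pair of proteins of the vault, a large cytoplasmic ribonucleoprotein particle, singled out after their values were seen, were higher. The major vault protein gene *mvp* had 2 listed transcripts, with 46.6 and 43.6 FPKM at 12 hpi, against 0.974 and 1.76 FPKM in uninjured retina. *parp4* had 7.34 FPKM at 12 hpi and 0.859 FPKM in uninjured retina. The highest level of any listed gene was that of *faim2b*, an inhibitor of Fas-mediated cell death, with 1024 FPKM at 12 hpi and 149 FPKM in uninjured retina (log2 ratio 2.78). The Polycomb gene *cbx7a* had 207 FPKM at 12 hpi and 17.8 FPKM in uninjured retina, and the lipase gene *lipib* had 180 FPKM at 12 hpi and 19.1 FPKM in uninjured retina. The uncharacterised gene zgc:158463 had 256 FPKM at 12 hpi and 44.8 FPKM in uninjured retina.

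Genes used here as markers of lens and blood were also higher. Of 10 lens markers chosen to check the tissue, 4 were listed, all as higher. Of 6 cornea and skin markers, only *krt8* was listed, also as higher. Of the lens genes, 20 were on the higher side and 0 on the lower, with a summed level of 656 FPKM at 12 hpi and 6.98 FPKM in uninjured retina, and 14 of the 20 were listed at 0 in uninjured retina. Among 92 named RefSeq genes of the group, 18 were higher (19.6%), against 1.14% over all genes. *crybb3*, a structural crystallin gene, had 121 FPKM at 12 hpi and 1.34 FPKM in uninjured retina. The crystallin genes *crygm3*, *crygs4*, and *cryaa* had 121, 71.2, and 49.99 FPKM at 12 hpi and were listed at 0 in uninjured retina. The lens fiber channel and membrane genes *cx44.1*, *lim2.1*, *lim2.3*, and *lim2.4* had 1.01 to 4.59 FPKM at 12 hpi and were listed at 0 in uninjured retina. 4 of the crystallin genes, *crygm7*, *crygm1*, *crygm2c*, and *crygm2b*, lie within 100000 bases of each other on chromosome 9 of GRCz10 (22182222 to 22258495). Of 6 red blood cell markers matched by symbol, only *slc4a1a*, the band 3 anion exchanger gene, was listed. It had 2.68 FPKM at 12 hpi and 0.540 FPKM in uninjured retina. Globin genes were listed under symbols outside those 6. The beta globin gene *ba1* had 350 FPKM at 12 hpi and 53.7 FPKM in uninjured retina, and HBZ had 5.38 FPKM at 12 hpi and was listed at 0 in uninjured retina. 0 of 8 skeletal muscle, 6 retinal pigment epithelium, and 4 blood vessel markers were listed. With 1.14% higher and 0.735% lower over all genes, 0 of so few markers says little about these tissues. Whether lens or blood RNA was in the dissected tissue, and what part it had in the other results, was not tested.

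**Figure D3:**
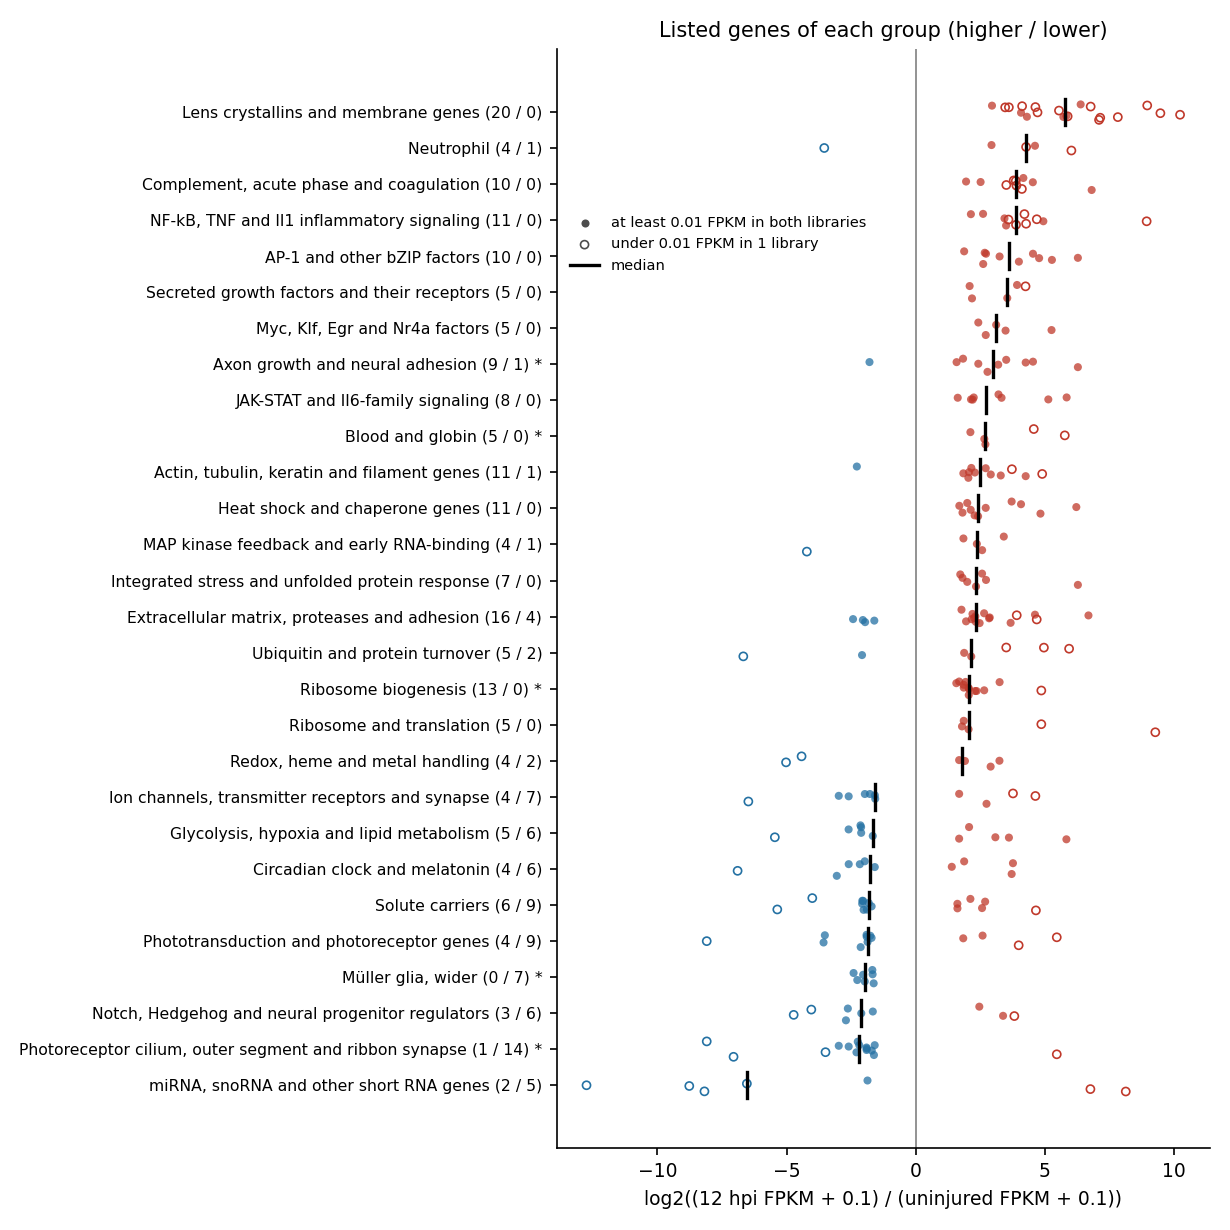
Log2 ratio (horizontal) of each listed gene in the groups with 5 or more listed genes, ordered by their median (black bars), with the number of higher and lower genes beside each name. Open circles mark genes under 0.01 FPKM in 1 library, and asterisks mark groups drawn up after the values were seen. Lens genes are at the top with 20 higher and 0 lower genes.

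Phototransduction and photoreceptor genes were mostly lower, with 9 listed as lower and 4 as higher, or 30.8% higher against 63.8% over all listed genes. 2 of these 13 are the identifiers of *impg2b*, 1 in each direction, which are described further on. The opsin kinase gene *grk1b* had 4.45 FPKM at 12 hpi and 53.8 FPKM in uninjured retina (log2 ratio -3.57). The guanylate cyclase activator gene *guca1e* had 3.45 FPKM at 12 hpi and 40.6 FPKM in uninjured retina (log2 ratio -3.52). Recoverin is a calcium sensor of photoreceptors, and its gene *rcvrna* had 63.6 FPKM at 12 hpi and 237 FPKM in uninjured retina. The rod channel subunit gene given as CNGB1 had 10.4 FPKM at 12 hpi and 46.0 FPKM in uninjured retina. *rgs9bp*, the anchor of the complex that ends the light response, had 8.57 FPKM at 12 hpi and 32.3 FPKM in uninjured retina. The complex's beta subunit gene *gnb5b* had 39.7 FPKM at 12 hpi and 129 FPKM in uninjured retina. Not all photoreceptor genes were lower. *guca1a*, another guanylate cyclase activator gene, had 217 FPKM at 12 hpi and 60.4 FPKM in uninjured retina, and *nr2e3*, a nuclear receptor gene of photoreceptor identity, had 72.3 FPKM at 12 hpi and 11.9 FPKM in uninjured retina. The genes *guca1a* and *guca1e* thus moved apart within 1 family, by 1.84 and -3.52 on the log2 scale. Of 6 rod and 7 cone markers chosen to check the tissue, 0 were listed, so the labelled tissue could be checked only on photoreceptor genes that are in the tables, such as *rcvrna* and *guca1a*, which were abundant in both libraries.

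A group of photoreceptor cilium, outer segment, and ribbon synapse genes, drawn up after the values were seen, held 14 lower genes and 1 higher. This is 6.67% higher, against 63.8% over all listed genes, and it is only a description because of how the group was drawn up. The higher gene and 1 of the 14 are the identifiers of *impg2b*, for which no direction is given further on. *arl3l2*, a small GTPase gene of the Arl3 family that carries lipid-anchored proteins to the outer segment, had 22.7 FPKM at 12 hpi and 111 FPKM in uninjured retina. The adhesion receptor gene *adgrv1* had 2.44 FPKM at 12 hpi and 11.9 FPKM in uninjured retina. *fscn2a*, an actin bundling gene, had 9.97 FPKM at 12 hpi and 30.8 FPKM in uninjured retina. For the photoreceptor calcium channel subunit *cacna2d4a*, 2 identifiers carry the symbol, with 2.73 and 3.06 FPKM at 12 hpi, against 17 and 24.8 FPKM in uninjured retina. *bbs9*, a gene of ciliary transport, had 11.6 FPKM at 12 hpi and 34.9 FPKM in uninjured retina.

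Several genes of calcium entry and extrusion, singled out after their values were seen, were lower. The list of ion channel, transmitter receptor, and synapse genes, which holds part of them, gave 4 higher and 7 lower genes. This is 36.4% higher, against 63.8% over all listed genes. Among its 670 named RefSeq genes, 1 was higher (0.149%) and 4 were lower (0.597%), against 1.14% and 0.735% over all genes. The other listed genes were not matched to a RefSeq name of their own, so these shares may be too low. The plasma membrane calcium pump gene *atp2b2* had 6.19 FPKM at 12 hpi and 20.7 FPKM in uninjured retina, and the sodium-calcium exchanger gene *slc8a2b* had 5.92 FPKM at 12 hpi and 22.2 FPKM in uninjured retina. The calcium release channel gene RYR2 had 6.17 FPKM at 12 hpi and 24.4 FPKM in uninjured retina. *cacna2d2a* and its neighbour CACNA2D2 on chromosome 6 had 12.1 and 5.37 FPKM at 12 hpi, against 36.3 and 18.6 FPKM in uninjured retina. *trpm1b*, whose mammalian relative is the channel of ON bipolar cells, had 12.1 FPKM at 12 hpi and 36 FPKM in uninjured retina. By contrast, both listed genes of calcium-activated chloride channels were higher, with 19.6 FPKM at 12 hpi and 6.04 FPKM in uninjured retina for *ano2*. The chloride intracellular channel gene *clic6* had 4.57 FPKM at 12 hpi and 45.6 FPKM in uninjured retina.

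Of the Müller glial genes, 1 was higher and 3 were lower. Among 31 named RefSeq genes of the group, 1 was higher (3.23%) and 2 were lower (6.45%), against 1.14% and 0.735% over all genes. The higher gene was *crlf1a*, given above. The glutamate transporter gene *slc1a2b*, the only one of 6 glial markers that was listed, had 16 FPKM at 12 hpi and 66.0 FPKM in uninjured retina (log2 ratio -2.04). *mlc1*, a membrane protein gene of glial end feet, had 3.12 FPKM at 12 hpi and 17 FPKM in uninjured retina. In a second glial group drawn up after the values were seen, 7 genes were lower and 0 were higher. It shares *slc1a2b*, *mlc1*, and the gene given as PTGDS with the first group and leaves out *crlf1a*. Its count of 0 higher genes therefore depends on how it was drawn up. Its 22 named RefSeq genes held 6 lower genes (27.3%), a share that is only a description for the same reason. The water channel gene *aqp4* had 12.5 FPKM at 12 hpi and 40.2 FPKM in uninjured retina. The carbonic anhydrase gene *ca2* had 60.1 FPKM at 12 hpi and 191 FPKM in uninjured retina. *gpr37l1b*, a glial receptor gene, had 10.3 FPKM at 12 hpi and 40.8 FPKM in uninjured retina. These differences were alike in size, with log2 ratios from -2.40 to -1.63 over the 7 genes. The aromatase gene *cyp19a1b*, a marker of radial glia in zebrafish, had 1.25 FPKM at 12 hpi and 6.36 FPKM in uninjured retina.

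Axon guidance genes of the semaphorin and plexin families were lower in 4 cases and higher in 0, again in a group drawn up after the values were seen. The 4 are 8% of its 50 named RefSeq genes, against 0.735% lower over all genes. Because of how the group was drawn up, this share is only a description. *sema7a* had 7.69 FPKM at 12 hpi and 36.7 FPKM in uninjured retina, and *sema3fb* had 6.24 FPKM at 12 hpi and 25.4 FPKM in uninjured retina. SEMA4D and the receptor gene *plxna1a* had 3.59 and 2.96 FPKM at 12 hpi, against 11.6 and 8.72 FPKM in uninjured retina.

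**Figure D4:**
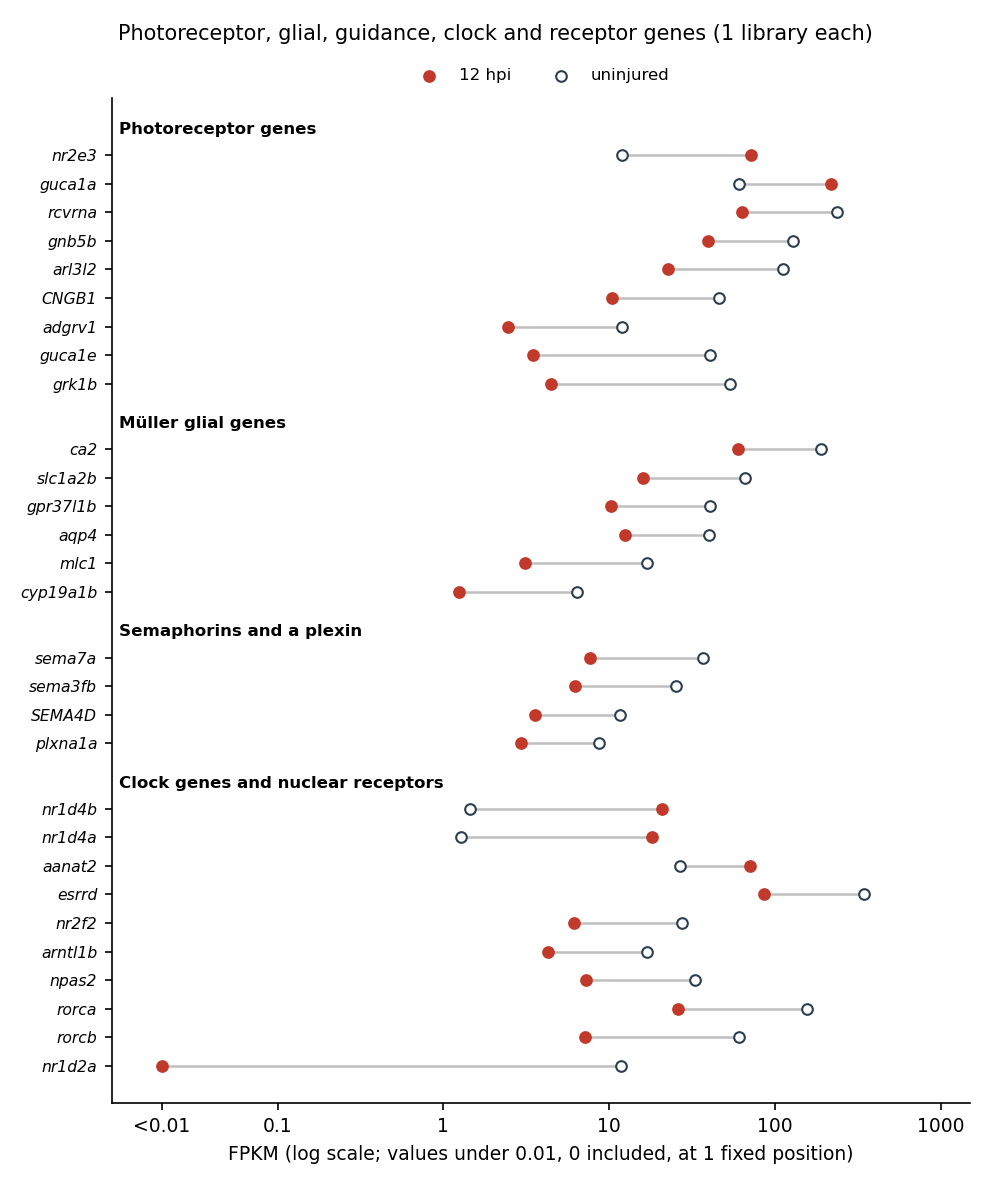
FPKM (horizontal, log scale) of photoreceptor, Müller glial, guidance, and clock and receptor genes at 12 hpi (filled circles) and in uninjured retina (open circles), with values under 0.01 FPKM at 1 fixed position. Most genes lie further left at 12 hpi, while *nr2e3*, *guca1a*, *nr1d4b*, *nr1d4a*, and *aanat2* lie further right.

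Circadian clock genes were listed in both directions, 4 higher and 6 lower, and the paralogs of 1 receptor family were split. Among 67 named RefSeq genes of the group, 4 were higher (5.97%) and 5 were lower (7.46%), against 1.14% and 0.735% over all genes. In the clock, Rev-erb receptors (the Nr1d genes) repress and ROR receptors activate the transcription of Bmal1-type genes. *nr1d4b* and *nr1d4a* had 21 and 18.1 FPKM at 12 hpi, against 1.45 and 1.28 FPKM in uninjured retina. *nr1d2a* was listed at 0 at 12 hpi and had 11.8 FPKM in uninjured retina. The ROR genes *rorca* and *rorcb* had 25.9 and 7.18 FPKM at 12 hpi, against 157 and 60.4 FPKM in uninjured retina (log2 ratios -2.59 and -3.05). The Bmal1-type gene *arntl1b* had 4.26 FPKM at 12 hpi and 17 FPKM in uninjured retina. Its partner *npas2* had 7.31 FPKM at 12 hpi and 33.1 FPKM in uninjured retina. *aanat2*, the melatonin synthesis enzyme gene, which cycles in zebrafish, had 70.8 FPKM at 12 hpi and 26.8 FPKM in uninjured retina. The hour of day at which each retina was taken is not given in the sources used here, and its part in these values was not tested.

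The clock receptors belong to a wider set of nuclear receptors. In the ontology columns of the tables, 9 listed genes carried the term steroid hormone receptor activity, 3 of them higher and 6 lower. Of the 324 listed genes with any molecular function term, 194 were higher and 130 were lower. The 9 include *nr1d4b*, *nr1d4a*, *nr1d2a*, *rorca*, and *rorcb*, already counted among the clock genes. The 3 higher genes were *nr1d4b*, *nr1d4a*, and *nr2e3*. Besides the clock genes, *esrrd*, an estrogen-related receptor gene, had 85.6 FPKM at 12 hpi and 344 FPKM in uninjured retina. ESRRB, of the same family, had 2.36 FPKM at 12 hpi and 12.7 FPKM in uninjured retina. *nr2f2*, a COUP-type receptor gene, had 6.16 FPKM at 12 hpi and 27.3 FPKM in uninjured retina.

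Neural progenitor and patterning regulators gave 3 higher and 6 lower genes among 251 named RefSeq genes, a share of 1.2% on the higher side, near the 1.14% over all genes, and of 2.39% on the lower side. *sall1a* had 24.1 FPKM at 12 hpi and 104 FPKM in uninjured retina, whereas its paralog *sall1b* had 3.58 FPKM at 12 hpi and 0.566 FPKM in uninjured retina. The Notch target gene *hey1* had 1.01 FPKM at 12 hpi and 7.10 FPKM in uninjured retina. *sox6* had 3.05 FPKM at 12 hpi and 19.4 FPKM in uninjured retina, and *hmga1b*, which encodes a chromatin protein, had 14.7 FPKM at 12 hpi and 46.7 FPKM in uninjured retina. A similar split was seen in the FoxO factors, singled out after their values were seen. *foxo3a* had 10.5 FPKM at 12 hpi and 45.8 FPKM in uninjured retina, and *foxo1b* had 9.58 FPKM at 12 hpi and 1.65 FPKM in uninjured retina. Of the cell cycle genes, 2 were listed. They are 1 higher and 1 lower of 254 named RefSeq genes (0.394% each), below the 1.14% and 0.735% over all genes. *cdkn1d*, of the Cdk inhibitor family, had 8.15 FPKM at 12 hpi and 22.4 FPKM in uninjured retina, and *tfdp1b* had 1.85 FPKM at 12 hpi and was listed at 0 in uninjured retina.

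Of the genes of glycolysis, hypoxia, and lipid metabolism, 5 were higher and 6 were lower, or 45.5% higher against 63.8% over all listed genes. Among 191 named RefSeq genes of the group, 3 were higher (1.57%, near the 1.14% over all genes) and 6 were lower (3.14%, against 0.735%). On the higher side stood *hk2*, which encodes the first enzyme of glycolysis, with 7.87 FPKM at 12 hpi and 0.552 FPKM in uninjured retina. Outside this list, the lactate transporter gene *slc16a3* had 43.9 FPKM at 12 hpi and 14.3 FPKM in uninjured retina. The pentose phosphate enzyme gene *pgd* had 116 FPKM at 12 hpi and 37.7 FPKM in uninjured retina. Lipid genes were on both sides. The higher side held the lipid droplet gene PLIN5, with 7.62 FPKM at 12 hpi and 0.809 FPKM in uninjured retina, and *acsl4b*, with 3.24 FPKM at 12 hpi and 0.696 FPKM in uninjured retina. The fatty acid binding protein gene *fabp11a*, also counted among the lens genes above, had 93.6 FPKM at 12 hpi and 1.54 FPKM in uninjured retina. On the lower side, *srebf1*, the regulator of fatty acid synthesis, had 17.2 FPKM at 12 hpi and 54.6 FPKM in uninjured retina, and the squalene synthase gene *fdft1* had 6.09 FPKM at 12 hpi and 26.6 FPKM in uninjured retina. Also outside it, the glycerol phosphate dehydrogenase gene *gpd1b* had 1.68 FPKM at 12 hpi and 20.1 FPKM in uninjured retina (log2 ratio -3.50), and the malate dehydrogenase gene *mdh1ab* had 45.5 FPKM at 12 hpi and 155 FPKM in uninjured retina. Insulin signaling adaptors were lower too, with 8.31 FPKM at 12 hpi and 28.6 FPKM in uninjured retina for *irs1*. *grb10a* had 4.41 FPKM at 12 hpi and 35.4 FPKM in uninjured retina. Solute carriers as a whole were 6 higher and 9 lower. The named RefSeq genes among them were 4 higher (0.887%) and 7 lower (1.55%) of 451, against 1.14% and 0.735% over all genes.

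Of the short RNA genes, 2 were higher and 5 were lower. Among 352 named RefSeq genes of the group, 1 was higher (0.284%) and 0 were lower, against 1.14% and 0.735% over all genes. The 5 lower genes carry symbols that were not matched to a RefSeq name, so these shares cannot be compared. The miRNA gene dre-let-7g-1 was listed at 0 at 12 hpi and had 688 FPKM in uninjured retina. dre-mir-125b-1 was listed at 0 at 12 hpi and had 9.19 FPKM in uninjured retina, while dre-mir-21-1 had 10.8 FPKM at 12 hpi and was listed at 0 in uninjured retina. These loci span 96, 145, and 148 bases. All 8 listed genes that span under 200 bases were listed at 0 in 1 of the libraries. FPKM divides by length, so few fragments give a high FPKM in a feature this short, and the libraries measured total RNA without a stated size selection for mature miRNAs. RNase P RNA had 157 FPKM at 12 hpi and 583 FPKM in uninjured retina, and 2 loci given as 5S_rRNA were listed at 0 at 12 hpi and had 43.5 and 28.9 FPKM in uninjured retina.

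The 12 hpi tables give transcripts, and for part of the genes a transcript stands for only some of the gene's RNA. The lower of a gene's 2 values was exactly 0 for 145 genes, between 2.23e-05 and 0.00213 FPKM for 57 genes, and at least 0.0707 FPKM for the other 403, with no value between. All 57 genes with such a very small value (100%) have more than 1 annotated transcript, against 193 of the 403 (47.9%) and 69 of the 145 at 0 (47.6%). The 57 genes, 25 higher and 32 lower, include genes that every cell uses. *rps28*, a ribosomal protein gene with 4 annotated transcripts, had a listed transcript with 63.1 FPKM at 12 hpi and 0.00153 FPKM in uninjured retina. In the gene-level table, *rps28* as a whole had 68.1 FPKM in the same uninjured library. In that library the listed transcript was thus assigned almost none of the level of an abundant gene. The splicing factor gene *sf3a3* had 16.7 FPKM at 12 hpi and 0.000446 FPKM in uninjured retina, and *ubfd1* had 6.06 FPKM at 12 hpi and 0.000231 FPKM in uninjured retina. The proton pump subunit gene *atp6v0ca*, with 2 annotated transcripts, had a listed transcript with 51.1 FPKM at 12 hpi that was at 0 in uninjured retina, and *inpp5kb*, also with 2, was listed at 0 at 12 hpi and had 23.7 FPKM in uninjured retina. On the lower side, *selk*, *ube2e2*, *kcnj2b*, and *ccnk* had under 0.01 FPKM at 12 hpi, and 5.05 to 13.1 FPKM in uninjured retina.

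The gene-level value of the uninjured library was taken for 186 of the 605 genes and was above 0 for 153. For the 74 of these 153 with 1 annotated transcript the listed transcript made up 100% of the gene. For the 79 with more, it made up a median of 83.6%, and under 10% for 4 genes. The percentage is not strictly a share, since the listed transcript of *il4r.1* had 0.604 FPKM and the whole gene 0.518 FPKM (117%). For the calcium pump gene *atp2b3b*, the listed transcript was at 0 at 12 hpi and had 1.72 FPKM in uninjured retina, of 45.4 FPKM for the whole gene in uninjured retina. For the kinase gene *wnk1b* it was at 0 at 12 hpi and had 1.11 FPKM of 31.3 FPKM in uninjured retina. The statement that these genes were lower therefore holds for a minor transcript of each.

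**Figure D5:**
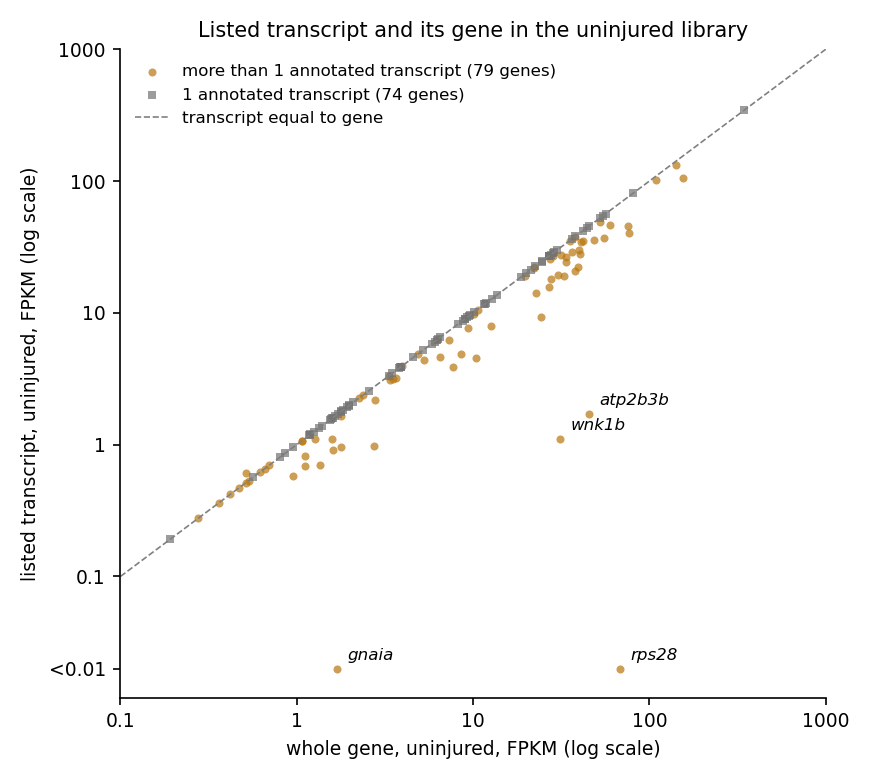
FPKM of the listed transcript (vertical, log scale) against FPKM of its whole gene (horizontal, log scale) in the uninjured library, for the 74 genes with 1 annotated transcript (squares, on the dashed line of equality) and the 79 with more (circles). *rps28*, *gnaia*, *atp2b3b*, and *wnk1b* lie far below the line, with under 10% of the gene's level in the listed transcript.

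14 genes had more than 1 listed transcript, and for 3 of them the transcripts went in opposite directions. For *il6st*, 1 transcript had 37.5 FPKM at 12 hpi and 8.02 FPKM in uninjured retina, and the other was listed at 0 at 12 hpi and had 4.89 FPKM in uninjured retina. For the septin gene *sept9a*, 1 transcript had 2.89 FPKM at 12 hpi and was at 0 in uninjured retina, and the other was at 0 at 12 hpi and had 1.16 FPKM in uninjured retina. The glutamate receptor gene *grik5* had 1.27 FPKM at 12 hpi and 0.00012 FPKM in uninjured retina for 1 transcript, and 0.000142 FPKM at 12 hpi and 1.13 FPKM in uninjured retina for the other. In each case the transcript with the larger mean was higher, and the gene was counted as higher. A like pattern was seen between gene identifiers. The photoreceptor matrix gene *impg2b* is annotated under 2 identifiers at 1 locus on chromosome 22 of GRCz10 (28370670 to 28407930). The first had 4.32 FPKM at 12 hpi and was at 0 in uninjured retina, and the second was at 0 at 12 hpi and had 27.2 FPKM in uninjured retina. How reads were divided between these overlapping models is uncertain, so no direction is given for *impg2b*.

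The 12 hpi genes were then set beside their gene-level values at 4 dpi, which were used for 186 genes. Both comparisons share the uninjured library, and genes without a value at 4 dpi are not known to have returned to the uninjured level. For genes with 1 annotated transcript, the values can be read as a short series. *atf3* measured 0.952 FPKM without injury, 81.8 FPKM at 12 hpi, and 26.6 FPKM at 4 dpi. *junbb* had 12.8, 123, and 65.4 FPKM in uninjured, 12 hpi, and 4 dpi retina, and C7 had 1.64, 196, and 51.7 FPKM. For these genes the 12 hpi value was the highest of the 3. Other genes had their highest value at 4 dpi. The tubulin gene *tuba8l* measured 1.82 FPKM without injury, 36.8 FPKM at 12 hpi, and 65.3 FPKM at 4 dpi. *alcamb* had 1.38, 10.1, and 23.9 FPKM, and the annexin gene *anxa2a* had 3.85, 22.5, and 108 FPKM in uninjured, 12 hpi, and 4 dpi retina. Among the lower genes, *esrrd* measured 344 FPKM without injury, 85.6 FPKM at 12 hpi, and 89.3 FPKM at 4 dpi. *srebf1* had 54.6, 17.2, and 16.1 FPKM, and *cyp19a1b* had 6.36, 1.25, and 1.5 FPKM in uninjured, 12 hpi, and 4 dpi retina.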

How the data were processed

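Total RNA of whole retina was sequenced by the authors, with 1 library per group, and 3 of the 4 libraries are used here. The submitters' processing notes name Bowtie2 2.2.2, TopHat2 2.1.0, Cufflinks 2.2.1, and the genome build GRCz10, without their roles. The deposited tables hold FPKM values computed by the authors, per transcript at 12 hpi and per gene at 4 dpi, for the features they called different from uninjured retina in either direction. How the libraries were scaled to each other and their read depth are not given in the sources used here, so no precision can be set on an FPKM value, and no replicate supports it. The tables also hold the authors' fold change, test statistic, p-value, and q-value of each comparison, which were not used.

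From these values 1 transcript per gene was kept, with the largest mean FPKM, and log2((12 hpi FPKM + 0.1)/(uninjured FPKM + 0.1)) was computed with Python 3.11.15, pandas 2.3.3, and numpy 2.4.6. No fold is given against a value listed at 0 or under 0.01 FPKM. The row choice and the ratio were tested on simulated data. The members and gene lists were chosen with earlier results of these data known. 35 lists were written first and 7 added after the values were seen, 9 genes that a name pattern caught by mistake were left out of a list, and 258 of the 605 genes were on a list. The named genes were, per direction, the 10 with the largest log2 ratio among those above 0 in both libraries and with at least 5 FPKM in the higher one, the 10 with the highest FPKM, the 5 with the highest FPKM among those at 0 in 1 library, list members, and genes with transcripts in both directions. Clone-named genes were mostly only counted, and others are marked as singled out or lie on the added lists. The genes *pprc1*, *rac2*, *mvp*, *parp4*, *nr2f2*, ESRRB, *tex264b*, *atp2b3b*, *wnk1b*, *gnaia*, *pgd*, *gpd1b*, *mdh1ab*, *irs1*, and *grb10a* were also picked, or described with a group, after their values were seen. Symbols are those of the tables, and the gene name table used here holds 543 of the 605 identifiers. The cell type markers were matched by these symbols only, so a marker listed under another name was not counted. RefSeq symbols, used to count a list's genes, are from an annotation of another build, so coordinates are those of the tables. A listed gene whose symbol is not a RefSeq name does not enter the RefSeq counts. Promoter motifs were not examined, and 3 of the listed genes are not reported here. The alternatives were a pseudocount of 1 FPKM, a minimum of 5 FPKM, summed or separate transcripts, 12 hpi values multiplied by 2 or 0.5, and genes above 0 in both libraries, with 2 more added after the data were seen (a minimum of 0.01 FPKM in both libraries, and genes with 1 annotated transcript).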

Additional observations from a re-analysis of the deposited data

Results flagged for a closer look

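4 genes were listed in opposite directions at 12 hpi and at 4 dpi, and 3 of them are described here. The difference between the times was not tested, since each time is 1 library, both are set against the same uninjured library, and the 12 hpi value is that of a transcript and the 4 dpi value that of a gene. The peroxiredoxin gene *prdx1* had a transcript with 0.000331 FPKM at 12 hpi and 3.16 FPKM in uninjured retina, while the gene had 24.5 FPKM at 4 dpi. The class II antigen presentation gene *mhc2dab* had a transcript with 0.000199679 FPKM at 12 hpi and 3.33 FPKM in uninjured retina, while the gene had 19.7 FPKM at 4 dpi. These genes have 4 and 2 annotated transcripts and are among the 57 with a value above 0 and under 0.01 FPKM in 1 library. The clone-named gene CABZ01111555.1, with 1 annotated transcript, had 97.3 FPKM at 12 hpi and 19.9 FPKM in uninjured retina, while it had 5.26 FPKM at 4 dpi.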

How the results depend on the processing

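No paired analysis was possible because each group has 1 library, and for the same reason no library could be left out. Among the counts of genes, there were 255 higher genes once a minimum of 5 FPKM was set on the higher value, and 245 with at least 0.01 FPKM in both libraries. Over genes with 1 annotated transcript there were 200 higher and 86 lower genes. Each of these counts is smaller because fewer genes enter. The median log2 ratio of the higher genes was 1.94 with a pseudocount of 1 FPKM, 2.63 over genes above 0 in both libraries, and 2.51 with at least 0.01 FPKM in both, where genes at very low values are left out. With the 12 hpi values multiplied by 2 or 0.5, the median was 4.24 or 2.25 for the higher genes and -1.16 or -3.11 for the lower genes, a shift near 1 on the log2 scale in each case. 2 values changed sign. With doubled 12 hpi values the log2 ratio of *tex264b* was 0.87, and with at least 0.01 FPKM in both libraries the median of the glycolysis, hypoxia, and lipid metabolism list was 0.011. Otherwise the median of each of the 32 lists with 3 or more listed genes had the same sign under 7 alternatives (not run with every transcript or with genes of 1 annotated transcript). So did the ratio of the other genes among the 204 checked, under 4 (the pseudocount, summed transcripts, and both multiplications). The kept signs are no check of the directions, because the genes were selected by their listed direction. A pseudocount cannot change the sign of a ratio. The smallest log2 ratio of a higher gene was 1.40, so a shift near 1 could reverse no higher gene. The list medians rest on the same selected genes. The pseudocount of 1 FPKM moved 80 of these 204 genes by more than 1.5-fold, and summing transcripts moved 5. An FPKM value of a short or low feature may rest on few fragments, and the tables do not show how many.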
